A study of Mus musculus with 6 samples.

Results

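Matrix metalloproteinase (Mmp), ADAM and ADAMTS protease genes, together with the Timp inhibitor genes and the protease-like Adamtsl genes, were examined in mouse heart tissue. The genes were taken by symbol from the deposited expression table, with a mean of at least 0.3 FPKM over all 6 libraries (fragments mapped to a gene, corrected for its length and for the number of mapped fragments in the library). Of 84 symbols that begin with one of these family names and a digit, 52 met that level, in a table of 21989 genes. They were 15 Mmp, 15 Adam, 13 Adamts, 5 Adamtsl and 4 Timp genes. Just above the level lay Adam5 (0.428 FPKM), Adamtsl1 (0.436 FPKM), Mmp17 (0.449 FPKM) and Adam12 (0.488 FPKM), and just below it Mmp24 (0.285 FPKM), Adamts20 (0.241 FPKM), Adamts12 (0.221 FPKM) and Adam3 (0.191 FPKM).

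The libraries were made from polyadenylated RNA of the left ventricle, as labelled. The ISO group consisted of male C57BL/6 mice given ISO under the skin at 10 mg/kg/d for 3 weeks, which the labels describe as a heart failure model. ISO is the usual abbreviation of isoproterenol, an agonist of beta-adrenergic receptors. The saline group consisted of male C57BL/6 mice that received an equal volume of saline in the same way, and there were 3 libraries in each group. No animal is named for any library, although the protocol mentions biological repeats, and the p-values below therefore rest on the spread among the deposited samples.

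Matrix metalloproteinases are zinc enzymes that cut collagens, elastin and other proteins of the extracellular matrix, and tissue inhibitors of metalloproteinases (TIMPs) block them by binding to the active site. ADAM proteases sit in the cell membrane and release the outer parts of membrane proteins, such as growth factors, cytokine receptors and Notch. ADAMTS proteases are secreted and process proteoglycans, procollagens, von Willebrand factor and the fibrillin microfibrils, and ADAMTS-like proteins share their binding modules but have no protease domain. In the heart most of these enzymes come from fibroblasts, endothelial cells and leukocytes, and they are known for their part in remodelling the matrix after injury or overload.

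ISO 1 to 3 held 7378782, 5154283 and 5614336 reads and saline 1 to 3 held 9862363, 6307039 and 2776152 reads, as recovered from the FPKM values. Saline 3 stood apart. In it, 24 genes were at 0 that had over 5 FPKM in each other library, and no other library had such a gene. Myl7, the atrial myosin light chain, was above Myl2, the ventricular one, in 5 of the 6 libraries, with Myl2 to Myl7 ratios of 0.172, 0.171 and 0.0168 in ISO 1 to 3 and 0.154, 0.0328 and 1.22 in saline 1 to 3. The defining ventricular marker was therefore not the higher one in 5 libraries labelled left ventricle. Longer genes were lower in saline 3. The median log2 difference of saline 3 from saline 1 and 2 was -0.49 over genes of at least 4000 bases, 0.07 over genes under 2000 bases and -0.51 over the 52 protease and inhibitor genes, whose median length was 4435 bases. It was -0.49 over the 22 of them under 4000 bases and -0.68 over the other 30. Of the 52, 37 (71.2%) were lower in saline 3 than in both other saline libraries, as were 58.1% of all tested genes, and 32 had their lowest value of all 6 libraries there. Log2 fold changes of these genes and medians of gene lists are therefore given with and without saline 3.

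Promoter sequences are shown for Mmp13, Mmp12 and Mmp3, neighbours on chromosome 9 whose levels differed widely between libraries of the same group, and for Adamtsl2, the gene with the smallest p-value of the 52. RefSeq (GRCm38.p6) gave a window of 250 bases before to 50 bases after the start for 31 of the 52 genes. Windows were searched for TGANTCA, the AP-1 motif, which reads the same on both strands, and for TATAAA on the strand of the gene, and the 2 motifs cannot share letters. TGANTCA stood in a window of 4 of the 31 genes (Mmp13, Mmp12, Mmp3 and Adam19; 12.9%) and of 8.97% of 27025 genes in the table. TATAAA stood in 5 of the 31 (Mmp13, Mmp12, Mmp3, Adamtsl2 and Adamts1) and in 9.77% of genes. The 4 stretches below run 5′ to 3′ on the plus strand of GRCm38.p6, from 120 bases before the start to 30 bases after it, with both motifs in capitals. They lie at chr9:7272394-7272543 (Mmp13), chr9:7347254-7347403 (Mmp12), chr9:7445702-7445851 (Mmp3) and chr2:27079259-27079408 (Adamtsl2). Mmp12 has 2 starts in the table. The stretch shown is that of the inner start, which lies within the gene (7344397 to 7360461). The same stretch at the outer start, where the gene begins, held neither motif.
Mmp13: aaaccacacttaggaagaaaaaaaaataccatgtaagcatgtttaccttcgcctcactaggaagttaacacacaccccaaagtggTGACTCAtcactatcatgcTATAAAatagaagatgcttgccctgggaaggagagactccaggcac
Mmp12: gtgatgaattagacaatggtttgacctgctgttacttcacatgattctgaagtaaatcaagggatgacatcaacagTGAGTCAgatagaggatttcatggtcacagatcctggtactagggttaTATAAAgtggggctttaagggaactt
Mmp3: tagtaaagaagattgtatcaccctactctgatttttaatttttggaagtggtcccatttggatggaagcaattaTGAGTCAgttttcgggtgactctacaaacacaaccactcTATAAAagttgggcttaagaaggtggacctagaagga
Adamtsl2: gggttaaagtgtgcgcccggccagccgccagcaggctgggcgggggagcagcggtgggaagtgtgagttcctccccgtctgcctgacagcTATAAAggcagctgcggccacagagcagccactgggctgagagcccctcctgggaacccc
The first base of TGANTCA lay 35 bases before the start in Mmp13, 44 bases before it in Mmp12 and 46 bases before it in Mmp3. TATAAA began 16 bases before the start in Mmp13 and 7 bases before it in Mmp3. In the stretch of Mmp12 it began 4 bases after the start. The stretch of Adamtsl2 held TATAAA, beginning 30 bases before the start, and no TGANTCA.

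No gene of the 52 passed the threshold between ISO and saline hearts, while most had a higher mean level in ISO. Values were compared as log2(FPKM + 1) with limma over 14218 genes, and a gene was called at a Benjamini-Hochberg adjusted p under 0.05. By this rule 0% of all tested genes were called, and the adjusted p of the 52 ranged from 0.708 to 0.994. The log2 fold change, ISO minus saline, was above 0 for 42 of the 52 genes (80.8%), beside 66.1% of all tested genes. Its median was 0.33 over the 52 and 0.17 over all tested genes. With another scaling (median of ratios) these medians were 0.20 and 0.01, and 35 of the 52 were above 0 (67.3%, beside 51.1% of tested genes). Without saline 3 the medians were 0.15 and 0.06, and 33 of the 52 were above 0 (63.5%, beside 58.7%).

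At an unadjusted p under 0.05, 7 of the 52 genes were higher in ISO (13.5%, beside 4.68% of tested genes) and 0 were lower (beside 1.35%). They were Adamtsl2, Mmp2, Adamts10, Timp2, Mmp23, Adam4 and Adam8. Adam4 reached the level of 0.3 FPKM through ISO, with a mean of 1.12 FPKM in ISO and 0.289 FPKM in saline. At that saline mean its ISO mean had to be the higher one for it to be included. All 3 ISO libraries lay above all 3 saline libraries for 9 of the 52 (17.3%, beside 12.1% of tested genes), namely Adam1a, Adamts10, Adamtsl1, Adamtsl2, Mmp2, Mmp19, Mmp23, Mmp28 and Timp2. They lay below all saline libraries for 2 genes, Timp4 and Mmp15 (3.85%, beside 3.77%). For Adamtsl2, Adamts10, Mmp2 and Timp2 the 95% exact Poisson intervals of the nearest ISO and saline libraries were also apart. For Adam1a, Adamtsl1, Mmp19, Mmp23, Mmp28, Timp4 and Mmp15 those intervals overlapped. Adamtsl1, for example, had 0.311 to 0.609 FPKM in ISO 1, against 0.237 to 0.533 FPKM in saline 2. Without saline 3 the counts of genes with ISO above and with ISO below were 12 (23.1%, beside 17.6%) and 4 (7.69%, beside 9.57%). Without saline 1 they were 12 (beside 19.1%) and 3 (beside 7.29%), and without saline 2 they were 12 (beside 21.6%) and 2 (beside 7.46%). Without ISO 1 they were 20 (38.5%, beside 18.5%) and 3 (beside 5.83%). Without ISO 2 they were 11 (beside 16.7%) and 2 (beside 4.68%), and without ISO 3 they were 11 (beside 18.9%) and 4 (beside 8.14%). With limma's sample quality weights, which gave saline 3 a weight of 0.08, Adamtsl2, Adamts10 and Mmp2 were called higher in ISO (adjusted p = 0.0175, 0.0221 and 0.0277; 5.77% of the 52, beside 1.94% of tested genes), and no gene of the 52 was when saline 3 was left out of that fit.

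**Figure D1:**
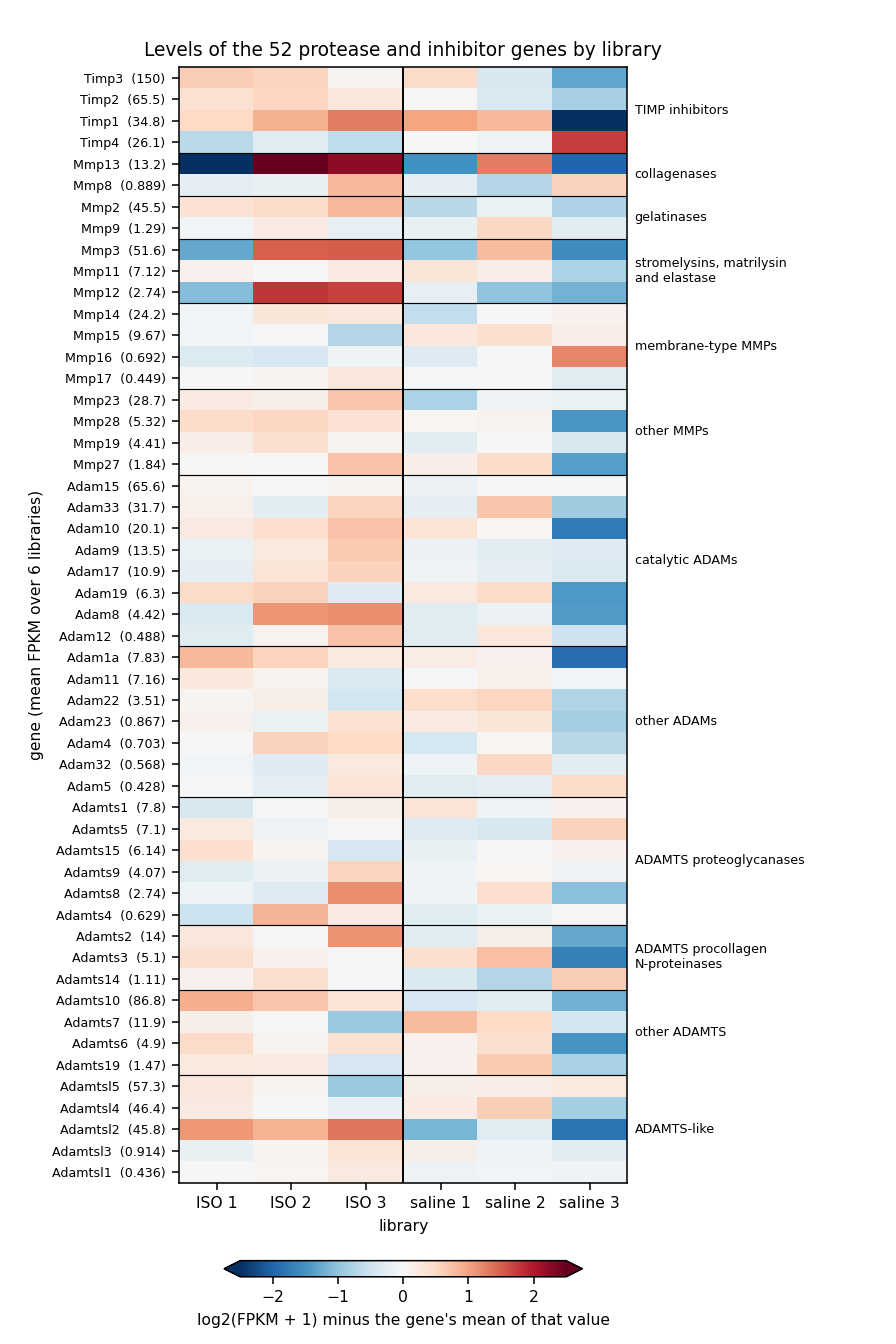
Level of each of the 52 genes in each library, as log2(FPKM + 1) minus the gene's own mean, with ISO 1 to 3 on the left and saline 1 to 3 on the right; genes are grouped by role and their mean FPKM stands in brackets. Colours beyond 2.5 in either direction are drawn at the end of the scale. Saline 3 is the lowest library for 32 genes, and Mmp13, Mmp3 and Mmp12 are high in ISO 2 and ISO 3 and low in ISO 1.

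Summed over families, the ADAMTS genes and the full set were higher in every ISO library than in any saline library. The 13 Adamts genes summed to 217, 187 and 176 FPKM in ISO 1 to 3 and to 127, 135 and 79.8 FPKM in saline 1 to 3. This rested on Adamts10, since the other 12 summed to 70.6, 62.8 and 79.3 FPKM in ISO and 69.4, 72.8 and 46.8 FPKM in saline, which overlap. All 52 genes summed to 1139 ± 51.4 FPKM in ISO and 767 ± 174 FPKM in saline (SD, n = 3 each), and without Adamts10 the lowest ISO sum (937 FPKM) was still above the highest saline sum (827 FPKM). The other families overlapped between the groups. The Mmp genes summed to 155, 296 and 319 FPKM in ISO and 109, 198 and 109 FPKM in saline, and the Adam genes to 182, 184 and 214 FPKM in ISO and 160, 189 and 116 FPKM in saline. The Adamtsl genes summed to 194, 167 and 156 FPKM in ISO and 129, 159 and 100.1 FPKM in saline. The Timp genes summed to 335, 349 and 286 FPKM in ISO and 319, 208 and 162 FPKM in saline. The summed Mmp to summed Timp ratio was 0.461, 0.850 and 1.11 in ISO 1 to 3 and 0.341, 0.951 and 0.675 in saline 1 to 3, so the groups overlapped.

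**Figure D2:**
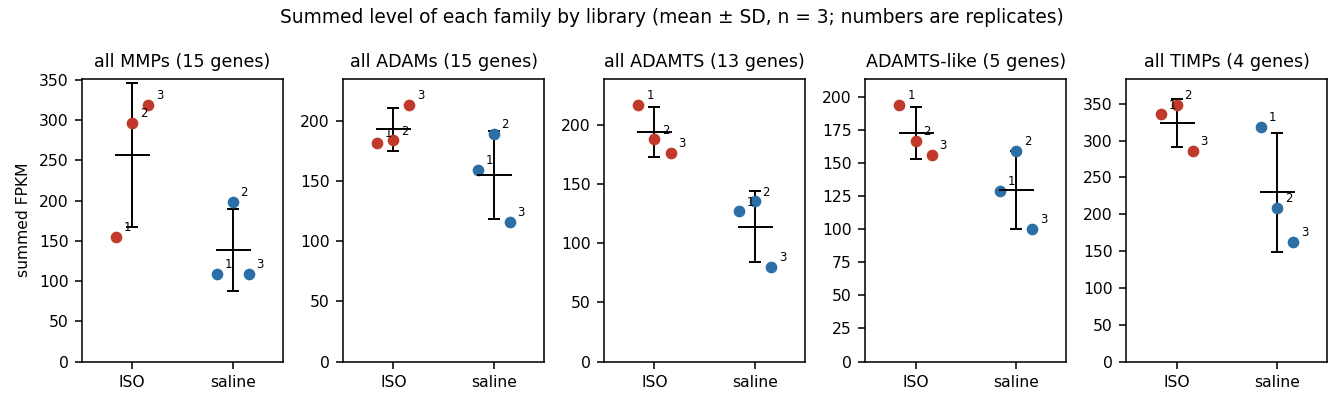
Summed FPKM of each family in each library, ISO left and saline right; points are libraries numbered by replicate, and bars are the mean and SD of 3 libraries. The 3 ISO points lie above all saline points for the ADAMTS genes (176 to 217 FPKM, against 79.8 to 135 FPKM), which overlap once Adamts10 is left out of the sum, and in the other families the groups overlap.

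Among the inhibitors, Timp2 was higher and Timp4 lower in every ISO library than in any saline library. Timp3, which binds to the matrix and also inhibits ADAM17 and aggrecanases, had the highest mean level of the 52 genes and lies within Syn3 on chromosome 10 (86300412 to 86349505). It had 209.9, 200.2 and 143 FPKM in ISO 1 to 3 and 190.3, 103 and 54.6 FPKM in saline 1 to 3, so the groups overlapped through saline 1. Its log2 fold change was 0.82 (SE 0.44), and 0.38 without saline 3.

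Timp2, on chromosome 11 (118301061 to 118355411), inhibits MMPs and also takes part in the activation of pro-MMP2 at the cell surface. It had 81.5, 91.1 and 75.1 FPKM in ISO 1 to 3 and 63.3, 47.3 and 34.5 FPKM in saline 1 to 3. The lowest ISO library was above the highest saline library. The means were 82.6 ± 8.06 FPKM in ISO and 48.4 ± 14.4 FPKM in saline (SD, n = 3 each), a log2 fold change of 0.80 (SE 0.27), or 0.58 without saline 3.

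Timp4, the TIMP with the most restricted expression and long known from heart tissue, lies within Syn2 on chromosome 6 (115244444 to 115252205). It had 12.9, 16.9 and 13.3 FPKM in ISO 1 to 3 and 21.3, 19.3 and 73.0 FPKM in saline 1 to 3. All ISO libraries were below all saline libraries, and saline 3 was far above the other saline libraries. On the log2 scale the difference was -1.08 (SE 0.49), and -0.48 without saline 3. Timp4 made up 0.0385, 0.0485 and 0.0466 of the summed Timp level in ISO 1 to 3 and 0.0669, 0.0929 and 0.450 in saline 1 to 3.

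Timp1, the soluble TIMP that inflammatory signals induce, lies within Syn1 and had 31.1, 40.5 and 54.6 FPKM in ISO 1 to 3 and 43.7 and 38.8 FPKM in saline 1 and 2. It was listed at 0 in saline 3, where 3 reads are worth 1.21 FPKM, although each other library held at least 186 reads. The groups overlapped among the other 5 libraries. Its log2 fold change was 1.79 (SE 1.36) with all libraries and -0.01 without saline 3, so its direction rests on that library. Of the 24 genes at 0 in saline 3 that had over 5 FPKM in each other library, Timp1 had the highest such level.

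Mmp2 had the smallest p-value of the Mmp genes and Adamtsl2 and Adamts10 the smallest 2 of the secreted ADAMTS and ADAMTS-like genes. Mmp2 encodes gelatinase A, which cuts denatured collagen and basement membrane collagen, and lies on chromosome 8 (92827290 to 92853421). It had 53.9, 57.6 and 75.1 FPKM in ISO 1 to 3 and 25.7, 37.0 and 23.9 FPKM in saline 1 to 3. All ISO libraries were above all saline libraries, with means of 62.2 ± 11.3 FPKM in ISO and 28.9 ± 7.07 FPKM in saline (SD, n = 3 each). This gave a log2 fold change of 1.09 (SE 0.26; limma adjusted p = 0.708), or 0.98 without saline 3. The Mmp2 to Timp2 ratio was 0.661, 0.632 and 1.00 in ISO and 0.405, 0.781 and 0.694 in saline, which overlap. Mmp9, gelatinase B and a product of neutrophils and macrophages, had 1.16, 1.60 and 0.943 FPKM in ISO and 0.984, 2.24 and 0.848 FPKM in saline, and the groups overlapped.

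Adamtsl2, which binds fibrillin microfibrils and in humans is mutated in geleophysic dysplasia, lies on chromosome 2 (27079336 to 27108981). It had 73.8, 62.7 and 87.5 FPKM in ISO 1 to 3 and 14.8, 27.2 and 8.84 FPKM in saline 1 to 3. Every ISO library was above every saline library. Mean levels were 74.7 ± 12.4 FPKM in ISO and 17.0 ± 9.39 FPKM in saline (SD, n = 3 each), a 4.40-fold ratio of means, and 3.55-fold against saline 1 and 2 alone. Its log2 fold change, 2.19 (SE 0.39; limma adjusted p = 0.708) and 1.83 without saline 3, was the largest of the 52 in both fits.

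Adamts10, a protease of fibrillin microfibrils that in humans is mutated in Weill-Marchesani syndrome, lies on chromosome 17 (33523646 to 33553782). It had 146, 125 and 97.1 FPKM in ISO 1 to 3 and 57.4, 62.4 and 33.0 FPKM in saline 1 to 3. The groups did not overlap, and the means were 123 ± 24.7 FPKM in ISO and 51.0 ± 15.7 FPKM in saline (SD, n = 3 each). The log2 fold change was 1.28 (SE 0.31; limma adjusted p = 0.708), and 1.00 without saline 3. It was the most highly expressed gene of the 52 after Timp3.

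**Figure D3:**
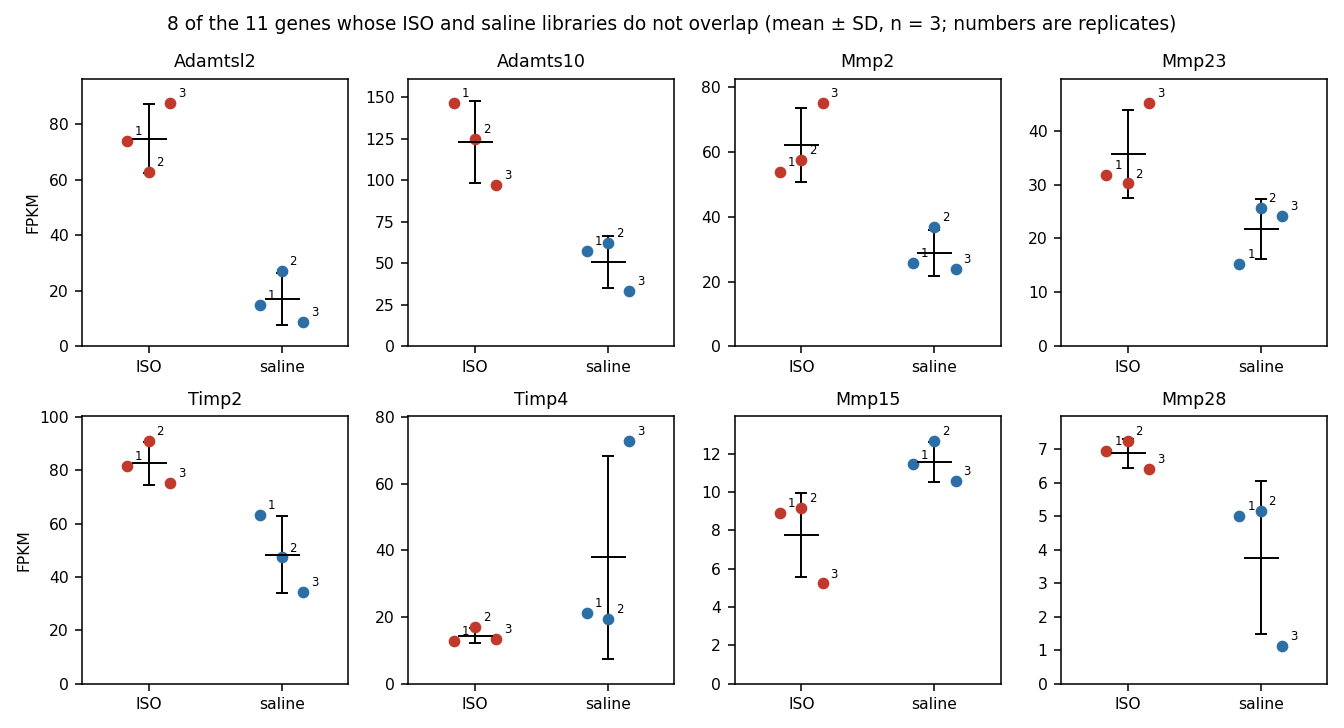
FPKM of 8 of the 11 genes whose ISO and saline libraries do not overlap, ISO left and saline right; points are libraries numbered by replicate, and bars are the mean and SD of 3 libraries. Adamtsl2 lies at 62.7 to 87.5 FPKM in ISO, against 8.84 to 27.2 FPKM in saline, and the SD of Timp4 in saline comes with saline 3 at 73.0 FPKM.

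Summed markers of activated fibroblasts, of cardiomyocytes of either chamber and of red blood cells also differed between the groups. Those of fibroblasts and of ventricular and atrial cardiomyocytes overlapped. The fibroblast markers (7 of 7 in the table) had summed levels of 1700 to 2795 FPKM in ISO, against 1439 to 2042 FPKM in saline, which overlap. Of the 7, 6 were higher in ISO (85.7%, beside 66.1% of tested genes). The activated fibroblast markers summed to 161 to 255 FPKM in ISO, against 74.1 to 96.1 FPKM in saline. The cardiomyocyte markers of either chamber summed to 11650 to 17892 FPKM in ISO, against 25406 to 28705 FPKM in saline. The erythroid markers, the list with the largest median log2 fold change (2.03 over 5 genes, and 1.75 without saline 3), summed to 10806 to 20845 FPKM in ISO, against 2109 to 4677 FPKM in saline. Fewer cells of a type and less RNA per cell cannot be told apart in these bulk samples, and the part of these markers in the results was not tested. As a share of Dcn, a fibroblast marker chosen for this ratio after the levels were seen, Adamtsl2 was 0.0786, 0.0716 and 0.131 in ISO 1 to 3 and 0.0219, 0.0629 and 0.0241 in saline 1 to 3, which do not overlap. The Mmp2 to Dcn ratio was 0.0573, 0.0657 and 0.112 in ISO and 0.0379, 0.0853 and 0.0652 in saline, and the Adamts10 to Dcn ratio was 0.156, 0.142 and 0.145 in ISO and 0.0848, 0.144 and 0.0900 in saline. Both of these overlap between the groups.

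A second pattern was a set of Mmp genes high in ISO 2 and ISO 3 and low in ISO 1. Mmp13, Mmp12, Mmp3, Mmp8 and Mmp27 lie in 1 cluster on chromosome 9, between 7272514 and 7699585, with Mmp1b, Mmp1a, Mmp10, Mmp20 and Mmp7, which were under 0.3 FPKM. Mmp3, stromelysin-1, which cuts proteoglycans and activates other pro-MMPs, had 14.1, 101 and 103 FPKM in ISO 1 to 3 and 17.5, 61.5 and 11.4 FPKM in saline 1 to 3. Counting error does not bridge these libraries, since the 95% exact Poisson interval ran from 12.1 to 16.2 FPKM in ISO 1, while that of ISO 2 ran from 95.1 to 108 FPKM. Such intervals cover counting error only. ISO 2, ISO 3 and saline 2 were high, and ISO 1 lay below saline 1.

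Mmp13, the main rodent interstitial collagenase, was listed at 0 in ISO 1 and had 36.1 and 27.7 FPKM in ISO 2 and 3, against 1.14, 13.8 and 0.539 FPKM in saline 1 to 3. For the 0 reads of ISO 1 the 95% exact Poisson interval reached up to 0.187 FPKM, and ISO 2 held 498 reads. The same 3 libraries as for Mmp3 were high. The log2 fold change was 1.16 (SE 0.88) for Mmp3 and 1.49 (SE 1.47; limma adjusted p = 0.720) for Mmp13, and without saline 3 it was 0.68 for Mmp3 and 0.86 for Mmp13. Without ISO 1 it was 2.09 for Mmp3 and 3.16 for Mmp13, and with limma-voom on the recovered reads Mmp13 turned to -0.38.

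Mmp12, macrophage elastase, had 0.180, 7.61 and 7.13 FPKM in ISO 1 to 3 and 1.16, 0.252 and 0.0954 FPKM in saline 1 to 3. ISO 2 and ISO 3 were high and saline 2, unlike for Mmp3, was low. Its log2 fold change was 1.60 (SE 0.77), and 1.41 without saline 3. Adam8, a sheddase of myeloid cells on another chromosome, had 2.45, 8.62 and 9.06 FPKM in ISO 1 to 3 and 2.63, 3.05 and 0.685 FPKM in saline 1 to 3. ISO 2 and ISO 3 were again high, ISO 1 lay below saline 1, and the log2 fold change was 1.25 (SE 0.53), or 0.86 without saline 3.

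Markers of other cells varied between the same libraries. The cartilage markers (7 of 8 in the table) summed to 10.4, 91.2 and 97.5 FPKM in ISO 1 to 3 and 2.55, 54.1 and 12.9 FPKM in saline 1 to 3. Of these, Col2a1, the collagen of cartilage, had 0, 64.7 and 70.8 FPKM in ISO 1 to 3 and 0.138, 41.4 and 0 FPKM in saline 1 to 3, and Acan, the aggrecan core protein, was listed at 0 in saline 3. The macrophage markers (8 of 8) summed to 769, 1607 and 1492 FPKM in ISO 1 to 3 and 347, 505 and 587 FPKM in saline 1 to 3. Cd68, a lysosomal marker of macrophages, had 33.6, 124 and 129 FPKM in ISO and 19.3, 26.1 and 26.0 FPKM in saline. Col2a1, Acan and Col9a1 were high in the 3 libraries where Mmp3 and Mmp13 were, while Chad and Matn3, of the same cartilage list, were highest in ISO 1 and saline 3 within their groups. Cd68, Adgre1, Csf1r and Lyz2 were high in the 2 libraries where Mmp12 and Adam8 were. Other macrophage markers were not low in ISO 1, such as Cd163 with 17.9, 15.0 and 15.6 FPKM and Fcgr1 with 8.11, 7.42 and 8.67 FPKM in ISO 1 to 3. The part of these markers in the result was not tested.

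**Figure D4:**
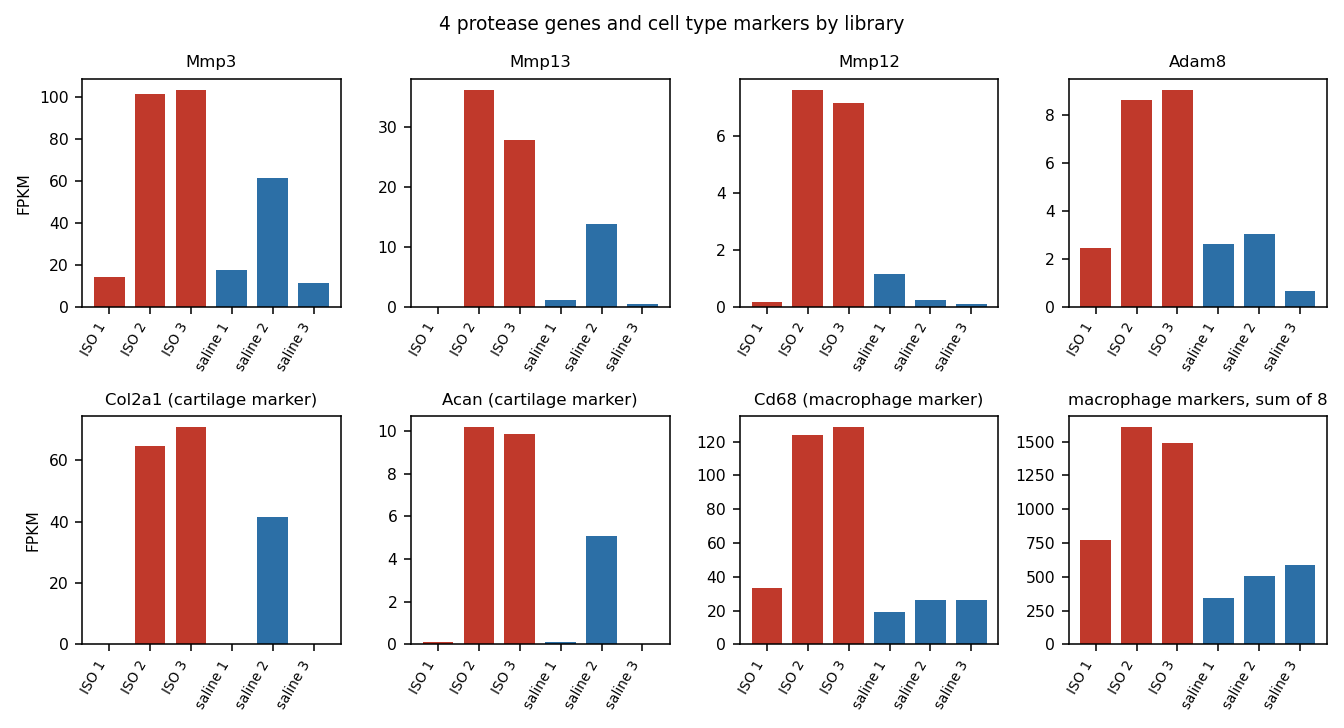
FPKM of Mmp3, Mmp13, Mmp12 and Adam8 (upper row) and of cartilage and macrophage markers (lower row) in each library, ISO 1 to 3 left and saline 1 to 3 right; each bar is 1 library. Mmp3, Mmp13, Col2a1 and Acan are high in ISO 2, ISO 3 and saline 2, and Mmp12, Adam8 and Cd68 are high in ISO 2 and ISO 3.

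The other genes of the chromosome 9 cluster did not share this pattern. Mmp8, neutrophil collagenase, had 0.497, 0.554 and 2.11 FPKM in ISO 1 to 3 and 0.496, 0.0646 and 1.62 FPKM in saline 1 to 3, with 1 to 29 reads a library. It was highest in ISO 3 and saline 3 within their groups. The neutrophil markers S100a8 and S100a9 were also highest there, whereas Retnlg, Csf3r and Cxcr2 were highest in ISO 3 and lowest in saline 3, and Ly6g was at 0 in every library. The 9 neutrophil markers summed to 41.4, 39.1 and 150.0 FPKM in ISO 1 to 3 and 59.0, 39.3 and 106 FPKM in saline 1 to 3, and their part was not tested. Mmp27 had 1.65, 1.64 and 3.26 FPKM in ISO and 1.90 and 2.60 FPKM in saline 1 and 2, and was listed at 0 in saline 3. Mmp11, stromelysin-3, which lies on chromosome 10, had 6.86 to 8.28 FPKM in ISO, against 3.53 to 8.73 FPKM in saline.

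The membrane-type Mmp genes, whose products act at the cell surface, had the lowest median of the Mmp groups (log2 fold change -0.16 over 4 genes, and 0.0065 without saline 3). This median includes Mmp16, with a mean of 0.269 FPKM in ISO and 1.12 FPKM in saline. Mmp16 reached the level of 0.3 FPKM through saline. At that ISO mean its saline mean had to be the higher one for it to be included. Only Mmp15 among the 4 had groups that did not overlap. Mmp14, the activator of pro-MMP2, had 22.6, 29.5 and 28.6 FPKM in ISO 1 to 3 and 15.3, 23.9 and 25.7 FPKM in saline 1 to 3, with a log2 fold change of 0.33 (SE 0.27), or 0.46 without saline 3. Mmp15, a close relative of Mmp14, had 8.91, 9.16 and 5.24 FPKM in ISO and 11.5, 12.7 and 10.6 FPKM in saline. Every ISO library was below every saline library for Mmp15, with a log2 fold change of -0.55 (SE 0.28), and -0.61 without saline 3. Mmp16 had 0.224, 0.151 and 0.432 FPKM in ISO and 0.236, 0.523 and 2.59 FPKM in saline, and Mmp17, which is anchored by a lipid, had 0.422 to 0.749 FPKM in ISO, against 0.168 to 0.444 FPKM in saline. Both overlapped.

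Mmp23, Mmp28 and Mmp19 were each higher in every ISO library than in any saline library. Mmp23, a short membrane-anchored enzyme without a hemopexin domain, had 31.9, 30.2 and 45.1 FPKM in ISO 1 to 3 and 15.3, 25.7 and 24.2 FPKM in saline 1 to 3. Its log2 fold change was 0.70 (SE 0.29), or 0.79 without saline 3, and it overlaps Mib2 in the annotation, with the strand setting of the counting not known. Mmp28, epilysin, had 6.95, 7.26 and 6.41 FPKM in ISO and 5.00, 5.17 and 1.12 FPKM in saline. Mmp19 had 4.94, 6.06 and 4.69 FPKM in ISO and 3.43, 4.31 and 3.02 FPKM in saline, and it overlaps Tmem198b in the annotation.

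The 8 ADAM genes with an active protease site all had a log2 fold change above 0 in the main fit (median 0.46, and 0.21 without saline 3). Not all stayed above 0 under the alternatives. For example, Adam15 was at -0.13 with median-of-ratios scaling, and Adam33 and Adam19 were at -0.11 and -0.12 without saline 3. In none of the 8 were the groups apart. Adam15, the highest of them, had 70.0, 64.3 and 68.3 FPKM in ISO 1 to 3 and 59.0, 66.9 and 65.1 FPKM in saline 1 to 3, a difference within the spread of the libraries. Adam10, the sheddase that opens the Notch receptor, had 21.0, 24.0 and 29.7 FPKM in ISO and 22.9, 18.5 and 4.62 FPKM in saline. For Adam10 the log2 fold change was 0.90 (SE 0.53), and 0.25 without saline 3, its lowest library.

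Adam17, which releases tumour necrosis factor and ligands of the EGF receptor, had 8.88, 13.4 and 16.4 FPKM in ISO 1 to 3 and 9.92, 8.89 and 8.08 FPKM in saline 1 to 3. ISO 2 and ISO 3 were above all saline libraries and ISO 1 was not, and the log2 fold change was 0.45 (SE 0.28), or 0.38 without saline 3. Adam17 overlaps Iah1 in the annotation. Adam9 had 11.5, 15.7 and 21.1 FPKM in ISO and 11.7, 10.6 and 10.2 FPKM in saline, with ISO 1 again inside the saline range. Adam33 had 24.5 to 43.8 FPKM in ISO, against 15.6 to 48.8 FPKM in saline. Adam19, a protease needed for heart development in mice, had 8.19, 8.85 and 4.26 FPKM in ISO and 6.85, 8.17 and 1.44 FPKM in saline. Adam12 had 0.159, 0.506 and 1.35 FPKM in ISO and 0.172 and 0.744 FPKM in saline 1 and 2, and was listed at 0 in saline 3. Adam33, Adam19 and Adam12 all overlapped.

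The 7 remaining ADAM genes had a median log2 fold change of 0.05, or -0.04 without saline 3. Adam1a, whose product is known from sperm, had 12.4, 10.4 and 8.12 FPKM in ISO 1 to 3 and 7.71, 7.33 and 1.05 FPKM in saline 1 to 3, which do not overlap; its close copy Adam1b could share reads, so the value is uncertain. Adam11, Adam22 and Adam23 encode proteins without an active protease site that are known mainly from the nervous system. Adam11 had 5.27 to 8.76 FPKM in ISO, against 6.71 to 7.79 FPKM in saline, Adam22 had 2.15 to 3.79 FPKM in ISO, against 1.56 to 5.21 FPKM in saline, and Adam23 had 0.594 to 1.34 FPKM in ISO, against 0 to 1.23 FPKM in saline. Adam4, Adam32 and Adam5 are genes of the testis that were low here. Adam4 had 0.626, 1.42 and 1.30 FPKM in ISO and 0.195 and 0.672 FPKM in saline 1 and 2, was listed at 0 in saline 3, and lies within Cox16.

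Of the ADAMTS genes grouped with Adamts10, all 3 overlapped. Adamts7, which cuts cartilage oligomeric matrix protein, had 12.2, 10.7 and 5.31 FPKM in ISO 1 to 3 and 19.7, 15.8 and 7.78 FPKM in saline 1 to 3. The groups overlapped through saline 3, and the log2 fold change of -0.55 (SE 0.42) was -0.91 without it. Adamts6, a relative of Adamts10, had 4.77 to 6.57 FPKM in ISO, against 0.937 to 6.16 FPKM in saline, and Adamts19 had 0.751 to 1.79 FPKM in ISO, against 0.330 to 2.69 FPKM in saline.

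The 3 procollagen N-proteinases, which trim the amino-terminal propeptide of fibrillar procollagens, overlapped between the groups. Adamts2, the main enzyme for procollagen I, had 15.2, 12.1 and 28.2 FPKM in ISO 1 to 3 and 10.2, 13.7 and 4.49 FPKM in saline 1 to 3, with a log2 fold change of 0.93 (SE 0.46), or 0.52 without saline 3. Adamts3, which also activates the lymphatic growth factor VEGF-C, had 4.57 to 6.18 FPKM in ISO, against 0.694 to 8.13 FPKM in saline. Adamts14 had 0.961 to 1.65 FPKM in ISO, against 0.214 to 2.08 FPKM in saline. The 5 fibrillar collagen genes listed as their substrates were chosen with earlier results of these data known, so the counts describe them and test nothing. All 5 had non-overlapping groups, with ISO above, beside 12.1% of tested genes, and also without saline 3, beside 17.6%. Their median log2 fold change was 1.06, and 0.89 without saline 3, and 0 of 5 were called with limma. Among them Col1a1 had the smallest p (log2 fold change 0.96) and Col5a2 the next, with 32.1, 33.0 and 57.2 FPKM in ISO and 19.2, 21.8 and 7.68 FPKM in saline.

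The 6 proteoglycanases, which cut versican and aggrecan, had a median log2 fold change of 0.09, or 0.10 without saline 3, and all overlapped. With median-of-ratios scaling Adamts5, Adamts9 and Adamts15 were below 0, at -0.09, -0.09 and -0.14. Adamts1, the highest, had 5.58, 7.39 and 8.57 FPKM in ISO 1 to 3 and 9.90, 7.01 and 8.33 FPKM in saline 1 to 3. Adamts5, the main aggrecanase of mouse cartilage, had 8.28, 6.25 and 7.08 FPKM in ISO and 5.32, 4.93 and 10.8 FPKM in saline, and ISO was above saline 1 and 2 but below saline 3. Adamts4 had 0.0738, 1.80 and 0.776 FPKM in ISO and 0.248, 0.389 and 0.490 FPKM in saline, from 2 to 34 reads. Adamts15, Adamts9 and Adamts8 had 1.68 to 8.41 FPKM in ISO, against 0.625 to 6.56 FPKM in saline.

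Of the other ADAMTS-like genes, Adamtsl1 had ISO above saline at a low level, and the groups of the others overlapped. Adamtsl5, which has the highest mean of the ADAMTS-like genes, had 67.3, 58.3 and 28.6 FPKM in ISO 1 to 3 and 61.5, 62.3 and 66.1 FPKM in saline 1 to 3. ISO 1 was above all saline libraries and ISO 3 far below, and the log2 fold change was -0.38 (SE 0.34), or -0.35 without saline 3 and -0.01 without ISO 3. Adamtsl4, a fibrillin-binding protein in which human mutations displace the lens, had 38.1 to 51.9 FPKM in ISO, against 24.3 to 68.5 FPKM in saline. Adamtsl1 had 0.442 to 0.675 FPKM in ISO, against 0.304 to 0.363 FPKM in saline, which do not overlap, and Adamtsl3 had 0.674 to 1.40 FPKM in ISO, against 0.566 to 1.09 FPKM in saline.

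**Figure D5:**
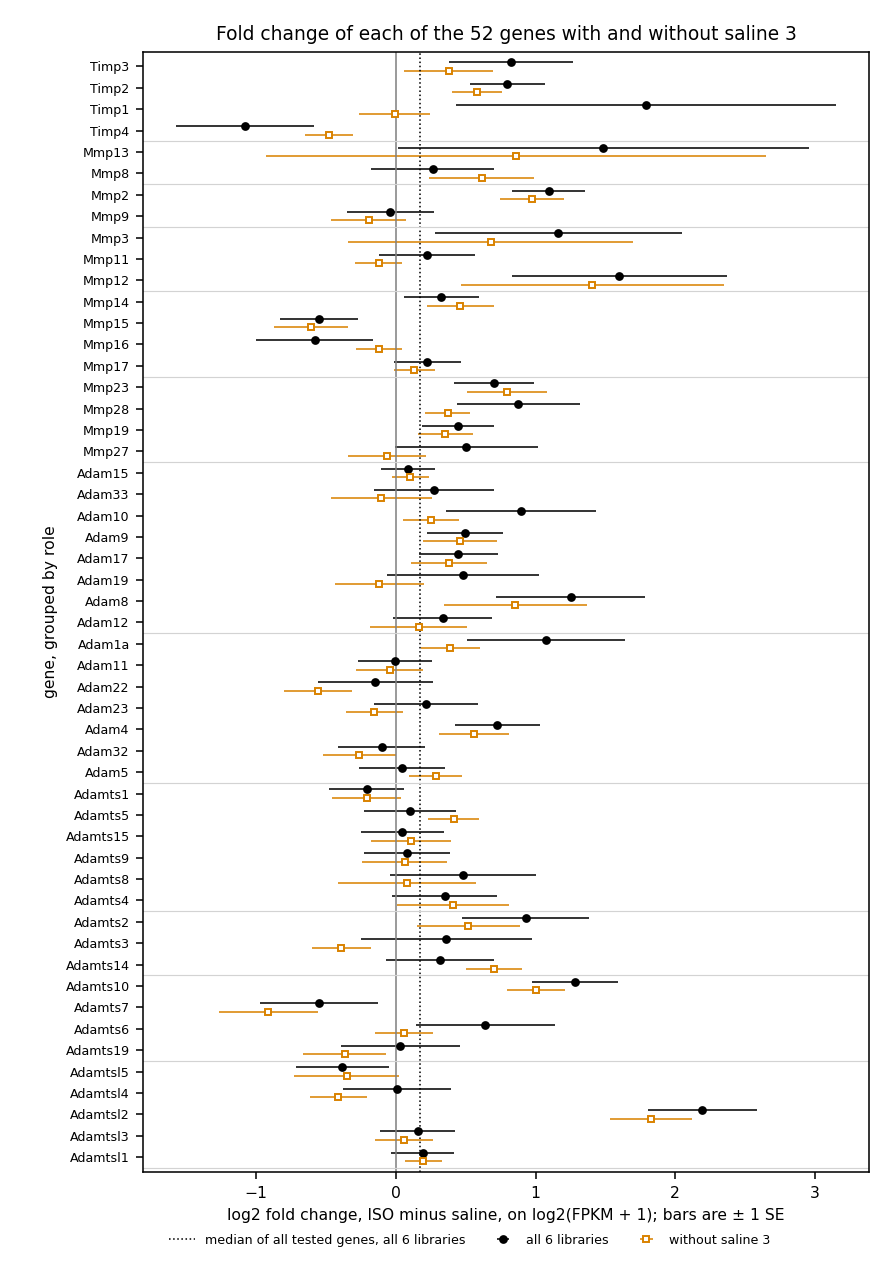
Log2 fold change (ISO minus saline, on log2(FPKM + 1)) of each of the 52 genes, grouped by role, with all 6 libraries (filled points) and without saline 3 (open squares); bars are 1 SE and the dotted line is the median of all tested genes, 0.17. Adamtsl2 lies at 2.19 and 1.83, and Timp1 at 1.79 and -0.01.

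Genes that act with these proteases were taken from lists chosen with earlier results of these data known, and 0 were called in any of them. The counts of these lists beside all tested genes are therefore description and no test. Of 8 genes of the plasminogen system, which activates pro-MMPs, 6 were higher and 2 lower in ISO (median log2 fold change 0.36, and 0.36 without saline 3, where 8 were higher). The smallest p was that of Serpinb2, an inhibitor of urokinase, with 0.0608, 0.696 and 2.96 FPKM in ISO and 0.0455, 0 and 0 FPKM in saline, and the next that of Plau, urokinase itself, with 2.26, 10.2 and 14.8 FPKM in ISO and 2.74, 2.45 and 6.00 FPKM in saline. Of 15 tested regulators, 10 were higher and 5 lower (median 0.52, and 0.21 without saline 3). The share of higher genes, 66.7%, was near the 66.1% of all tested genes. Reck, a membrane-anchored MMP inhibitor, had 5.29, 5.18 and 4.99 FPKM in ISO and 3.49, 3.29 and 1.99 FPKM in saline, which do not overlap, with a log2 fold change of 0.67 (SE 0.27). Tspan33, a tetraspanin that escorts ADAM10, had 1.96, 3.20 and 1.96 FPKM in ISO and 1.32 and 1.58 FPKM in saline 1 and 2, and was listed at 0 in saline 3.

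All 7 cysteine cathepsins, lysosomal proteases that also cut matrix proteins, were higher in ISO, beside 66.1% of tested genes (median log2 fold change 0.87, and 0.73 without saline 3). For 4 of them the groups did not overlap, beside 12.1% of tested genes. Ctsz had 133, 198 and 221 FPKM in ISO and 83.7, 97.6 and 116 FPKM in saline, and Ctsc, which activates the granule proteases of leukocytes, had 8.78, 11.8 and 12.9 FPKM in ISO and 5.11, 7.56 and 3.23 FPKM in saline. The summed macrophage markers were also higher in every ISO library (769 to 1607 FPKM, against 347 to 587 FPKM in saline), and their part in the result was not tested. Of 11 tested proteoglycan, microfibril and related substrates of ADAMTS enzymes, 9 were higher (81.8%, beside 66.1% of tested genes). Their median was 0.74, and 0.60 without saline 3. Bgn led them, with 662 ± 62.3 FPKM in ISO and 275 ± 8.23 FPKM in saline (SD, n = 3 each). Lum followed, with 83.5 ± 5.13 FPKM in ISO and 38.1 ± 4.22 FPKM in saline (SD, n = 3 each). Of 16 tested ligands and receptors shed by ADAMs, 13 were higher (81.25%, beside 66.1% of tested genes). Their median was 0.63, and 0.49 without saline 3. Cx3cl1, a membrane-bound chemokine, had 6.29, 6.36 and 7.08 FPKM in ISO and 4.13, 3.53 and 2.41 FPKM in saline, and Tnfrsf1b, a receptor for tumour necrosis factor, had 4.94, 64.0 and 71.5 FPKM in ISO and 6.46, 4.45 and 3.59 FPKM in saline. Tnfrsf1b was high in ISO 2 and ISO 3, the libraries in which Mmp12 and Adam8 were high.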

How the data were processed

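RNA-seq of polyadenylated RNA was deposited as 1 table with 1 column per library. The authors' deposited values are FPKM per gene symbol. The submitters' processing notes name CASAVA 1.8, fastp 0.20.0, HISAT2 2.1.0, Cufflinks 2.2.1, HTSeq 0.7.2, DESeq and the build GRCm38, without saying what each did. Which tool made the FPKM, the annotation and the strand setting are not given in the sources used here, so genes that overlap another gene are uncertain. Since FPKM is relative to the library total, more reads on abundant genes mean lower values elsewhere.

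Within a library the FPKM of a gene are multiples of the value of 1 read, and depth was worked out from these multiples. Among 16816 genes with a value above 0 in 2 or more libraries, 100% gave whole reads to a tolerance of 0.0001. For a gene of 1 kilobase, 1 read equals 0.101 FPKM in saline 1 and, at the lower depth, 0.360 FPKM in saline 3. Of the 52 genes, 18 had under 10 reads in at least 1 library and 46 were above 0 in every library.

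Libraries were grouped by their labels. Values were tested as log2(FPKM + 1), a scale that understates the change of low genes, in R 4.3.3 with limma 3.58.1 (two-sided moderated test, variance trend over the mean, no term besides group) over the 14218 genes with a mean of at least 0.3 FPKM, with Benjamini-Hochberg adjustment at 0.05. The script was tested on simulated data. An exact permutation test of 3 against 3 libraries cannot give a two-sided p below 0.1, so none was used. Before averaging, libraries were compared over genes with at least 50 reads. The closest pair, ISO 1 and ISO 2, differed by 4.45 times the chi-square that sampling gives, so all 6 libraries were counted.

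The genes, role groups and pathway lists were chosen with earlier results of these data known. Genes given library by library were a fixed set, the highest of each role group and those with the smallest p in each direction; in each pathway list the 2 with the smallest p were named. Mmp19, Mmp27, Mmp28, Adam4, Adam9, Cd68, Cd163, Fcgr1 and Col2a1 were given library by library after their values were seen, and the sums without Adamts10 and the lists without saline 3 were added then too. Positions and promoters came from RefSeq (GRCm38.p6), where all 52 symbols had an entry. Alternatives were 2 other pseudocounts, a stricter filter and none, 2 scalings between libraries, sample quality weights, limma-voom on the recovered reads, a replicate block and each library left out. Other steps ran in Python 3.11.15 with scipy 1.17.1, pandas 2.3.3 and numpy 2.4.6.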

Additional observations from a re-analysis of the deposited data

How the results depend on the processing

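With sample quality weights, 419 genes were called (276 higher and 143 lower in ISO), 3 of them among the 52. With the same weights and saline 3 left out, and under the other alternatives that kept all libraries, 0 were. Leaving out 1 library gave 0 to 16 called genes, with 16 without ISO 1, and none of the 52. The median log2 fold change of the 52 genes was 0.15 to 0.43 when 1 library was left out, 0.57 and 0.46 with a pseudocount of 0.1 and 0.5, 0.20 with median-of-ratios scaling, 0.18 with quantile normalization, 0.16 with weights and 0.48 with limma-voom. Over all genes that median was 0.17, and 0.01 with median-of-ratios scaling.

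Mmp13 was at -0.38 with limma-voom, and 0.55 to 3.16 when 1 library was left out. Timp1 was at -0.013 with weights and at -0.086 with weights and saline 3 left out, and from -0.0074 to 2.73 when 1 library was left out. The cause was not tested beyond the value of 0 in saline 3. Of the 52 genes, 29 kept their sign under all 16 alternatives and 23 did not. The count of genes with ISO above saline was 11 to 20 when 1 library was left out (20 without ISO 1, chosen after seeing the data), and with ISO below saline 2 to 4 (4 without saline 3 and 4 without ISO 3). With the filter at a mean of at least 1 FPKM, 41 of the 52 were tested.

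With the replicate number as a block, 0 genes were called (smallest adjusted p = 0.757 with limma) and the median stayed at 0.33. Same-numbered libraries did not deviate together (r across genes of 0.01, -0.13 and -0.02). With 3 libraries in each group, these values cannot show whether the numbers pair the samples. Depth limits the low genes most, since saline 3 held 2776152 reads.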

Other observations

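Of the 84 symbols of these families, 32 had a mean under 0.3 FPKM and were not tested. Of these, 14 were at 0 in all 6 libraries and 8 had over 0.3 FPKM in at least 1 library. Mmp24, a membrane-type enzyme known from neurons, had 0.378, 0.406 and 0.331 FPKM in ISO 1 to 3 and 0.377 and 0.221 FPKM in saline 1 and 2, and was listed at 0 in saline 3. Adamts20 and Mmp25 were highest in saline 3, at 1.12 and 0.769 FPKM, and Adamts13, the protease of von Willebrand factor, was above 0 in ISO 3 alone (0.544 FPKM).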
